A study of Homo sapiens with 12 samples.

Results

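The effect of KLA on gene expression in the presence of dexamethasone (Dex) was measured in the wild-type hepatoma line HepG2, an established human cell line. Of the 12 RNA sequencing libraries of the study, 6 bear on this effect: 3 from cells given Dex at 50 nM and 3 from cells given Dex at 50 nM together with KLA (DexKLA), whose dose the labels give as 100 ng/µl. That unit was taken as labelled, was not checked, and could be a slip for a lower concentration. No DMSO library enters the difference between these groups. All cells spent 24 h in charcoal-stripped serum, which is low in steroid hormones, before 24 h of treatment, so both groups carry the glucocorticoid and differ, as far as the labels say, by KLA. The other 6 libraries (KLA without Dex, and DMSO at 0.1% as the vehicle) enter the choice of transcripts, the filter on low counts, the scaling, the shared estimate of the spread and, where named, the comparison with the effect of KLA without Dex. The labels do not say whether the replicates were separate cultures, so the p-values reflect the spread among these libraries alone, and that spread may be technical. In a bulk sample, fewer cells of a type and less RNA per cell cannot be told apart.

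Dexamethasone is a drug of the glucocorticoid class. Its receptor is a ligand-controlled transcription factor that switches on metabolic and anti-inflammatory genes in liver cells and holds back many genes driven by NF-kB. KLA is the usual short form of Kdo2-lipid A, the part of bacterial lipopolysaccharide that the receptor TLR4 recognises together with LY96 and CD14. The labels do not spell the letters out. Through MYD88 and TICAM1, TLR4 activates kinases that free NF-kB from its inhibitor NFKBIA, and NF-kB then drives chemokines, adhesion molecules and its own inhibitors.

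The letters that NF-kB proteins recognise, the kappa-B motif, were looked for in the promoters of inflammatory genes measured here. The promoters of the 4 genes with a match in this search are shown. The search used the motif's 10-letter consensus on both strands of the window from 250 bases before to 50 bases after each start site, in RefSeq sequences of the build GRCh38.p14. The 250 bases before each start site are printed 5′ to 3′ on the gene's strand, with the matches in capitals: CCL20 at chr2:227813592-227813841 (plus strand), NFKBIA at chr14:35404750-35404999 (minus strand), TNFAIP3 at chr6:137867009-137867258 (plus strand) and BIRC3 at chr11:102317234-102317483 (plus strand).
CCL20: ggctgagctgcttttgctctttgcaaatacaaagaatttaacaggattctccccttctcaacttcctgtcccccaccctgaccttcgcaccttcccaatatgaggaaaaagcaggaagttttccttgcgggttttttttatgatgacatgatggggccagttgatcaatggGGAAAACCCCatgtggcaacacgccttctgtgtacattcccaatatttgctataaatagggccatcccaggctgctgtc
NFKBIA: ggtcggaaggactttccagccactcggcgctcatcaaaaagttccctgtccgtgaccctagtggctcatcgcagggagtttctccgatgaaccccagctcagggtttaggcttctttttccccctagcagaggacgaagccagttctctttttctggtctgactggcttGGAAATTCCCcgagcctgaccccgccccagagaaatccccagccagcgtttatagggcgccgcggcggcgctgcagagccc
TNFAIP3: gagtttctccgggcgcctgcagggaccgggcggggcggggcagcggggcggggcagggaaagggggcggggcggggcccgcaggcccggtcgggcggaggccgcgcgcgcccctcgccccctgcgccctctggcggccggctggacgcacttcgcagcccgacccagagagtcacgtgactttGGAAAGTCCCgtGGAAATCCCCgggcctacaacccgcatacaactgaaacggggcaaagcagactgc
BIRC3: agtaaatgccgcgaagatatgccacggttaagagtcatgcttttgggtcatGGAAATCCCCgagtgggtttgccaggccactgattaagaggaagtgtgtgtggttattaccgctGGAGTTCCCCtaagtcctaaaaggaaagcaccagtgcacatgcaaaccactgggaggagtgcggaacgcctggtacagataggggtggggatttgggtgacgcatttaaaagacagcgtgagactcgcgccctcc

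The match lies 79 to 70 bases before the start site in CCL20 and 81 to 72 bases before it in NFKBIA. TNFAIP3 holds a pair of matches that do not overlap, 67 to 58 and 55 to 46 bases before the start site, and BIRC3 holds a pair at 199 to 190 and 135 to 126 bases. The windows of CXCL8 and ICAM1, whose RefSeq start sites are those of the counted transcripts, held no match to these letters. Those of SOD2, BIRC2 and CFB held none either, but their RefSeq start sites are not those of the counted transcripts. For SOD2 the bases before the start site lie at chr6:159727385-159727634, outside the counted transcript and not next to it (159669069 to 159693241, minus strand). Every letter had to fit the consensus, so a lack of a match does not mean that a gene lacks a site for NF-kB. Of 35114 promoters of this length, 5.91% held a match, as did 6.49% of the 10051 promoters that belong to genes tested here. The median log2 change in DexKLA versus Dex was −0.02 over the 652 tested genes with a match and 0.01 over the 9399 without one.

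With Dex present, no gene met the threshold for a change with KLA. The quasi-likelihood test of edgeR, adjusted by the Benjamini-Hochberg method, called 0 of 13166 genes (0%) at an adjusted p under 0.05, and the smallest adjusted p was 0.695. At an unadjusted p under 0.05 there were 935 genes (7.1%), of which 575 (4.37%) were higher and 360 (2.73%) lower in DexKLA. DESeq2 also called 0, with 765 genes at an unadjusted p under 0.05, and limma voom called 0, with 1033. A count at that threshold carries no correction for the number of genes tested. Of the 13166 tested genes, 842 had all DexKLA libraries above all Dex libraries and 831 had all below, beside 0% called. Between groups of 3 libraries some genes separate through the spread of libraries alone. A lack of overlap, here and for single genes below, is a description and not a call.

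The intervals show how large a change these libraries could have missed, given the spread among them. That spread may be technical, and the intervals are not corrected for the trend with transcript length described below. The median size of the log2 change was 0.13 and the median standard error 0.15. The 95% confidence interval lay within a 2-fold change for 12218 genes (92.8%) and within a 1.5-fold change for 9230 (70.1%). At a mean above 50 CPM (read counts scaled for library size by TMM, edgeR's trimmed mean of M-values), the interval stayed within 2-fold for nearly all of 3831 genes and within 1.5-fold for 96.4%. Between 10 and 50 CPM it stayed within 2-fold for 99.7% of 5672 genes, between 2 and 10 CPM for 87.1% of 2822, and under 2 CPM for 32.6% of 841. Changes beyond 2-fold in the fitted value were found for 29 genes.

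**Figure D1:**
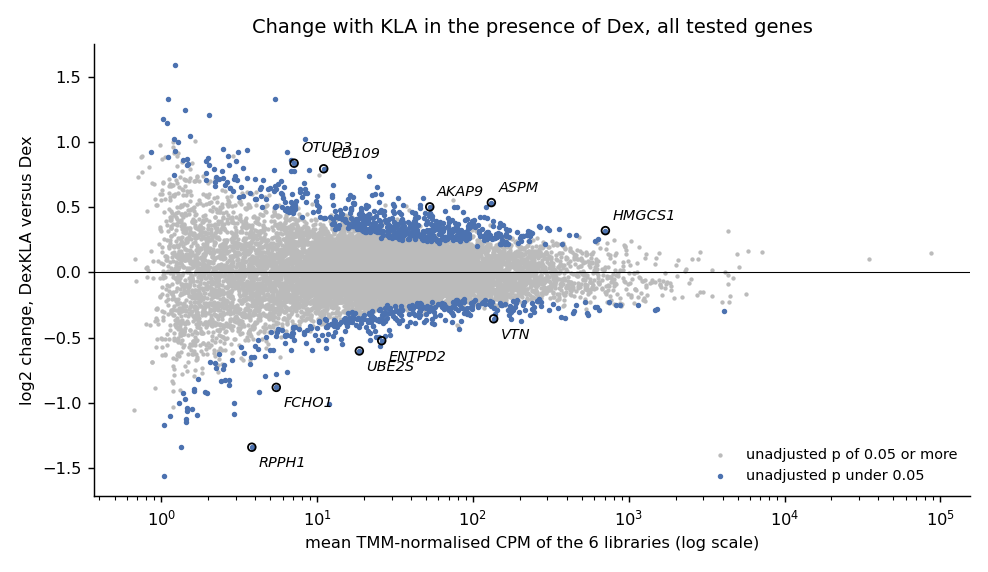
Fitted log2 change in DexKLA versus Dex (vertical axis) against the mean TMM-normalised CPM of the 6 libraries (horizontal log axis) for each of 13166 tested genes. The 935 genes at an unadjusted p under 0.05 are blue, named genes are circled, and none was called after adjustment.

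The 6 libraries held 3642685 to 17782057 counts over genes, and depth was mixed within both groups: Dex replicate 2 and DexKLA replicates 1 and 3 were among the 6 deeper libraries of the study, and Dex replicates 1 and 3 and DexKLA replicate 2 among the 6 shallower. The median absolute log2 difference between 2 libraries was 0.156 to 0.220 within a group and 0.175 to 0.231 across the groups, so the ranges overlapped. Libraries also differed in how expression tracked transcript length. Spearman's rho across genes, which are not independent replicates, of transcript length with the departure of each library from the 12-library mean was 0.137, −0.534 and −0.148 in Dex replicates 1 to 3 and −0.134, 0.0917 and 0.385 in DexKLA replicates 1 to 3. Hepatocyte markers were present throughout: all 13 listed were tested, and albumin took 7.81% to 9.53% of the counts. Of 12 macrophage and Kupffer cell markers 3 were tested (CD68, AIF1 and LYZ, with a summed level of 4069 to 4257 CPM in Dex and 3885 to 4458 in DexKLA). Most of that sum was LYZ, as CD68 stood at 43.6 to 55.4 CPM and AIF1 at 1.58 to 4.68 CPM in the 6 libraries. The other 9 markers, among them CD163, MARCO, VSIG4 and PTPRC, held at most 1 count in any of the 6 libraries.

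The receptor itself was at the edge of detection. TLR4 had 0, 6 and 0 counts in Dex replicates 1 to 3 and 1, 3 and 4 counts in DexKLA, and was not tested. The 0 counts allow up to 0.824 and 0.65 CPM in Dex replicates 1 and 3, a limit of 3 counts per library that covers counting error only. LBP, the plasma protein that hands lipopolysaccharide to CD14, had 2 counts in Dex replicate 2 and 0 in the other 5 libraries. LY96, the TLR4 partner that binds lipid A, stood at 0.554, 2.64 and 2.64 CPM in Dex and at 1.6, 1.39 and 1.83 CPM in DexKLA, and the groups overlapped. CD14, the co-receptor, stood at 3.33, 2.87 and 3.08 CPM in Dex and at 2.74, 1.39 and 1.33 CPM in DexKLA. Each DexKLA library was below each Dex library, with a fitted log2 difference of −0.70 ± 0.41 (SE) and a 95% interval from −1.55 to 0.14. Its adjusted p was 0.741 by edgeR's quasi-likelihood test.

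Downstream of the receptor, 22 of the 25 listed genes of the TLR4 complex and its adaptors were tested. None was called, 13 had a positive and 9 a negative fitted change, and the median was 0.06, beside 0.004 over all tested genes. The member with the smallest p was TBK1, the kinase that phosphorylates interferon regulatory factors, with 50.5, 42.7 and 47.9 CPM in Dex and 58.5, 64.5 and 51.3 CPM in DexKLA (log2 0.31, interval 0.06 to 0.56). All DexKLA libraries lay above all Dex libraries. TBK1 overlaps the antisense gene AC135279.3, and antisense reads cannot be separated, because no source used here gives the strand of the libraries. TOLLIP, an inhibitory adaptor, had a fitted log2 difference of −0.20 with overlapping groups.

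Among 18 tested NF-kB subunits and feedback inhibitors, none was called, 13 were positive, and the median was 0.10. BIRC3, an inhibitor of apoptosis that NF-kB induces, stood at 3.88, 4.24 and 3.08 CPM in Dex and at 5.48, 7.2 and 5.98 CPM in DexKLA. Its groups did not overlap, and its log2 difference was 0.65 ± 0.27 (SE), with an interval from 0.09 to 1.20 and an adjusted p of 0.695 by edgeR's quasi-likelihood test. BIRC2, its neighbour and relative, stood at 125, 109 and 125 CPM in Dex and at 142, 146 and 128 CPM in DexKLA (log2 0.22, interval −0.01 to 0.44). NFKBIA, the inhibitor that NF-kB resynthesises to shut itself off, stood at 77.6, 86.2 and 87.5 CPM in Dex and at 84.5, 75 and 80.2 CPM in DexKLA. These values interleave, and the interval of the log2 difference ran from −0.28 to 0.15, a change of less than 1.5-fold either way. TNFAIP3 (A20), a ubiquitin-editing brake on the pathway, stood at 18.3, 18 and 18.9 CPM in Dex and at 17.8, 22.3 and 23 CPM in DexKLA. DexKLA replicate 1 was below every Dex library, and the log2 difference was 0.19 (interval −0.10 to 0.49). TNFAIP3 overlaps the antisense gene AL357060.1.

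Of 36 listed NF-kB target cytokines and inflammatory genes only 14 could be tested. The other 22 had at most 10 counts in any of the 6 libraries, and 11 of them, IL6, IL1B, CCL2, PTGS2 and SAA1 included, had 0 counts in all 6. CXCL8 (interleukin 8, chromosome 4, 73740569 to 73743716), the neutrophil chemokine, stood at 1.11, 1.49 and 0.88 CPM in Dex and at 2.63, 1.86 and 1.83 CPM in DexKLA. All DexKLA libraries were above all Dex libraries. The fitted log2 difference was 0.71 ± 0.35 (SE), with an interval from −0.01 to 1.42, and the adjusted p was 0.701 by edgeR's quasi-likelihood test. CCL20 (chromosome 2, 227813842 to 227817556), a chemokine that attracts CCR6-bearing lymphocytes and dendritic cells, stood at 533, 396 and 447 CPM in Dex and at 516, 718 and 312 CPM in DexKLA. DexKLA held both the highest and the lowest value, and the log2 difference was 0.17 ± 0.22 (interval −0.30 to 0.63).

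For ICAM1, SOD2 and CFB the interval stayed within a 1.5-fold change, and over the 14 tested genes of the list it stayed within 2-fold for 12. ICAM1, the adhesion molecule, stood at 48.5, 42.8 and 48.4 CPM in Dex and at 37.3, 43.6 and 50.7 CPM in DexKLA (log2 −0.07, interval −0.35 to 0.21), and it overlaps AC011511.2 on the other strand. SOD2, the mitochondrial superoxide dismutase and a classical NF-kB target, stood at 239, 247 and 244 CPM in Dex and at 274, 260 and 262 CPM in DexKLA. The groups did not overlap, yet the difference was small (log2 0.13, interval −0.07 to 0.32), and the transcript overlaps ACAT2 and WTAP. CFB, complement factor B, stood at 209, 202 and 204 CPM in Dex and at 166, 197 and 161 CPM in DexKLA (log2 −0.23, interval −0.44 to −0.02). All 3 DexKLA values were lower, and CFB has 7 annotated loci and overlaps C2, so its reads cannot be assigned to 1 gene with certainty. The acute-phase genes CRP and SAA1 had 0 counts in all 6 libraries.

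**Figure D2:**
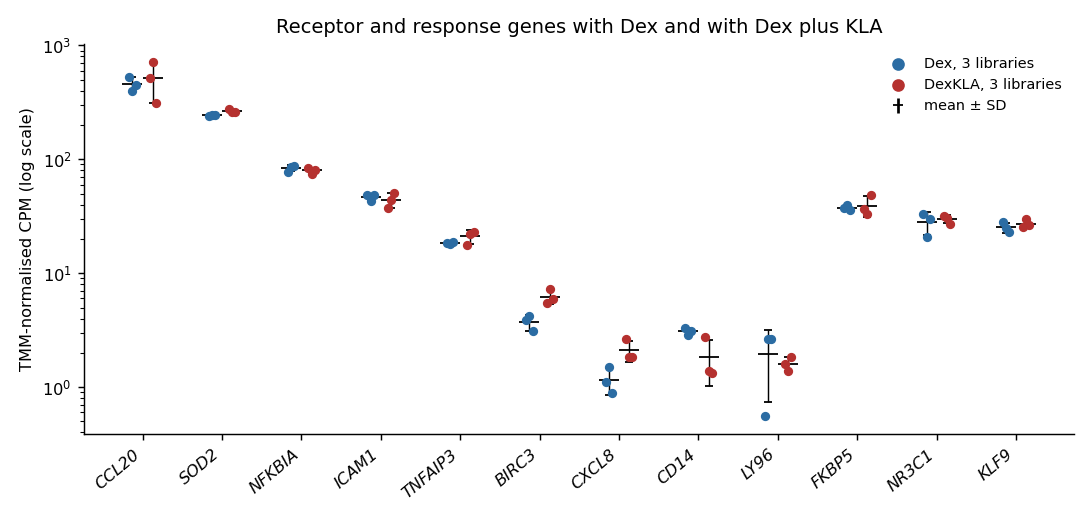
TMM-normalised CPM (vertical log axis) of 12 receptor, NF-kB and glucocorticoid response genes in the 3 Dex (blue) and 3 DexKLA (red) libraries; black bars are the mean ± SD. CXCL8, BIRC3 and SOD2 are higher and CD14 lower in every DexKLA library, without passing the adjusted test, and the values of the other 8 genes interleave.

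Genes of the glucocorticoid response showed no called difference when KLA was added to Dex. Of 28 tested genes on the list of the glucocorticoid receptor and its targets, none was called and none had an unadjusted p under 0.05. The median log2 change was −0.02, with 13 positive and 15 negative. NR3C1, the receptor, stood at 33.3, 20.8 and 29.9 CPM in Dex and at 31.6, 30.6 and 27 CPM in DexKLA (interval of the log2 difference −0.22 to 0.50). FKBP5, a co-chaperone that the receptor induces, stood at 37.7, 39.5 and 35.6 CPM in Dex and at 36.3, 33 and 48.6 CPM in DexKLA (interval −0.26 to 0.41), and DexKLA replicate 3 alone lay above the Dex range. KLF9, a transcription factor induced by glucocorticoids, had an interval from −0.17 to 0.38 with interleaved values. SGK1, a kinase known for its induction by glucocorticoids, stood at 23.8, 24.4 and 26 CPM in Dex and at 28.3, 29.2 and 28.1 CPM in DexKLA. These groups did not overlap (log2 0.20, interval −0.08 to 0.49). Its DMSO libraries stood above both, at 44.5, 40.5 and 43.2 CPM, so SGK1 was not higher with Dex in these cells. TSC22D3 had 3 to 22 counts in the 6 libraries and was not tested.

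The genes with the smallest p-values on the higher side had transcripts of 6504 to 12411 bases, against a median of 3130 over all tested genes, and none was called. All 5 had an adjusted p of 0.695 by edgeR's quasi-likelihood test, and none of their groups overlapped. CD109, a membrane protein that binds TGF-beta (chromosome 6, 73696203 to 73828313), stood at 4.99, 8.14 and 11 CPM in Dex and at 13.4, 12.3 and 16.3 CPM in DexKLA (log2 0.80 ± 0.19). AKAP9, a scaffold of protein kinase A at the Golgi and centrosome (chromosome 7, 91940875 to 92110673), stood at 48.8, 41.2 and 41.6 CPM in Dex and at 53.7, 65.5 and 66.1 CPM in DexKLA (0.50 ± 0.13). ASPM, a spindle pole protein of dividing cells (chromosome 1, 197084127 to 197146669), stood at 123, 93.3 and 106 CPM in Dex and at 147, 153 and 165 CPM in DexKLA (0.54 ± 0.14). The same order held for ZGRF1, a DNA repair helicase (0.58 ± 0.15), and OTUD3, a deubiquitinase (0.84 ± 0.22). CD109 overlaps AL590428.1 and ZGRF1 overlaps LARP7, both on the opposite strand.

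On the lower side, the 5 smallest p-values came with the same adjusted p of 0.695 (edgeR's quasi-likelihood test), and the groups did not overlap either. UBE2S, the ubiquitin-conjugating enzyme of the anaphase-promoting complex (chromosome 19, 55399745 to 55407788), stood at 23.3, 24.4 and 19.4 CPM in Dex and at 14.8, 15.3 and 14.6 CPM in DexKLA (log2 −0.60 ± 0.15). ENTPD2, a cell-surface enzyme that hydrolyses ATP (chromosome 9, 137048107 to 137054061), stood at 29.4, 32 and 30.6 CPM in Dex and at 18.5, 20.4 and 24.8 CPM in DexKLA (−0.52 ± 0.13). FCHO1, an endocytosis adaptor (chromosome 19, 17751477 to 17788561), stood at 8.87, 6.82 and 6.16 CPM in Dex and at 3.88, 2.55 and 4.49 CPM in DexKLA (−0.88 ± 0.23). RPPH1, the RNA component of ribonuclease P (chromosome 14, 20343071 to 20343411), stood at 7.48, 4.01 and 5.06 CPM in Dex and at 2.06, 2.55 and 1.66 CPM in DexKLA (−1.34 ± 0.34). The fifth, MIR3654 (−0.57 ± 0.14), has 2 annotated loci and overlaps AC008038.1, so its reads cannot be assigned to the microRNA. RPPH1 overlaps AL355075.4 on the same strand.

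A trend with transcript length ran through the whole comparison. The median log2 change climbed from −0.11 in the shortest of 10 equal classes of transcript length (median 849 bases) to 0.16 in the longest class (median 8945 bases). Genes at an unadjusted p under 0.05 had a median length of 5481 bases where higher and 1854 bases where lower, against 3130 for all tested genes. Spearman's rho between length and the change, a description across 13166 genes, was 0.389. It was 0.155 without Dex replicate 2, 0.198 without DexKLA replicate 3 and −0.018 without both, the pair of libraries whose own trends with length lay farthest apart. Without that pair edgeR's quasi-likelihood test called 0 genes, with 546 at an unadjusted p under 0.05. Removing each library's smooth trend on length left 0 called and 793 at that threshold. In KLA versus DMSO the trend had the opposite sign, from 0.30 in the shortest class to −0.28 in the longest (rho −0.467).

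**Figure D3:**
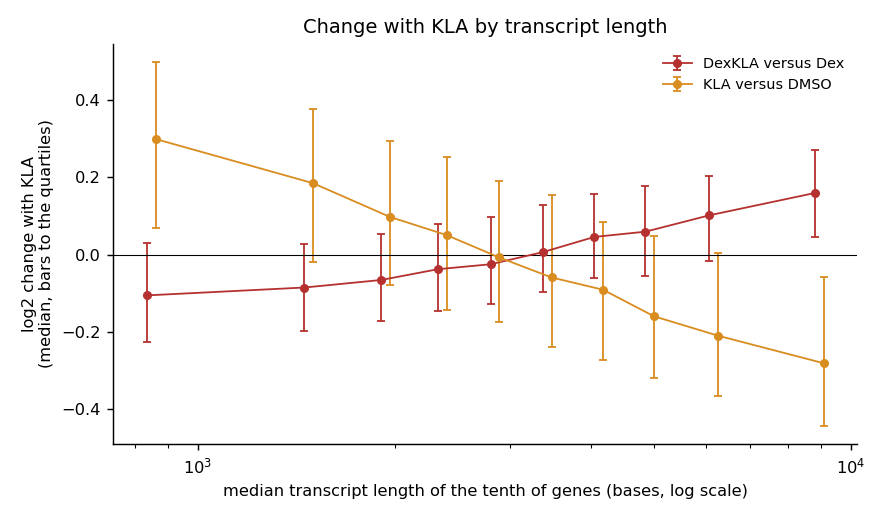
Median log2 change with KLA (bars: 25th to 75th percentile of genes) in 10 equal classes of the tested genes ordered by transcript length (horizontal log axis, bases), with Dex (red, DexKLA versus Dex) and without it (orange, KLA versus DMSO). The red medians run from −0.11 to 0.16 and the orange from 0.30 to −0.28.

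No list of genes held a called member. Over the 35 lists the counts are 0 called beside 0% of all tested genes, so the lists below are described by the signs and medians of their members, and where given, the median after removal of the length trend stands beside. The list furthest above 0 was IL-6 and STAT3 signalling, with 15 of 16 tested members positive and a median of 0.15 (0.12 with the length trend removed). IL6ST (gp130), the shared signalling receptor of the IL-6 family, stood at 287, 193 and 222 CPM in Dex and at 296, 287 and 312 CPM in DexKLA. No DexKLA library was below a Dex library, and Dex replicate 1 came close (log2 0.36, interval 0.06 to 0.66). LIFR, the receptor of leukaemia inhibitory factor, stood at 37.7, 24 and 29.7 CPM in Dex and at 40, 40.4 and 37.4 CPM in DexKLA (0.41, interval 0.04 to 0.78), and the groups overlapped through Dex replicate 1. IL6ST and LIFR overlap the antisense genes AC008914.1 and LIFR-AS1.

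Growth and early-response genes gave single members with larger values. EGR1, an immediate early transcription factor, stood at 7.21, 3.55 and 4.84 CPM in Dex and at 8.45, 7.89 and 8.81 CPM in DexKLA (log2 0.86 ± 0.25, interval 0.35 to 1.37), without overlap. Across its list of 21 tested immediate early and ERK feedback genes, 9 were positive and the median was −0.02. Among 40 cell cycle and replication genes, 26 were positive (median 0.09), with CENPE, a kinetochore motor, at 0.30 and CCNB2, a mitotic cyclin, at −0.29. CCNB2 stood at 59.9, 61.7 and 55.6 CPM in Dex and at 48.4, 48.3 and 48.5 CPM in DexKLA, so that every DexKLA value was lower. Extracellular matrix and TGF-beta genes had 22 of 30 members positive (median 0.10, and 0.06 with the length trend removed), with ITGA2 (0.38) and ITGAV (0.30), both integrin subunits, showing overlapping groups.

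Lists with negative medians included those of ribosomes and respiration, whose transcripts are short. Of 39 cytosolic ribosomal protein genes, 37 had a negative fitted change, with a range from −0.34 to 0.07 and a median of −0.12, which was −0.06 with the length trend removed. Their median transcript was 1063 bases long, and their summed level was 33095 to 38526 CPM in Dex and 25652 to 38127 CPM in DexKLA. RPL18, a protein of the large subunit, stood at 365, 446 and 414 CPM in Dex and at 364, 333 and 270.5 CPM in DexKLA (−0.34, interval −0.58 to −0.11), with DexKLA replicate 3 lowest. Nuclear-encoded subunits of oxidative phosphorylation had 31 of 41 members negative (median −0.10, and −0.04 with the length trend removed). RPL18 overlaps SPHK2.

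Negative medians were also found for 2 lists of stress and hepatic metabolism. The unfolded protein and integrated stress response list had 24 of 35 members negative and a median of −0.12 (−0.07 with the length trend removed), with 7 members lower and 2 higher at an unadjusted p under 0.05, where 2.73% of all tested genes were lower and 4.37% higher. MANF, a secreted protein induced by endoplasmic reticulum stress, stood at 51, 62.5 and 53 CPM in Dex and at 45.2, 46.2 and 40 CPM in DexKLA (−0.36, interval −0.61 to −0.12), without overlap. CRELD2, another secreted stress protein, had −0.45 with overlapping groups, and it overlaps ALG12. Gluconeogenesis and amino acid catabolism had 23 of 28 members negative (median −0.13, and −0.10 with the length trend removed). HPD, an enzyme of tyrosine breakdown, stood at 212, 253 and 221 CPM in Dex and at 189, 194 and 205 CPM in DexKLA (−0.23). FBP1, fructose-1,6-bisphosphatase, stood below 3 CPM in every Dex and DexKLA library (−0.92, interval −1.69 to −0.15).

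Secreted liver proteins showed small differences. Of 41 coagulation and complement genes 23 were negative, and 5 were lower and 0 higher at an unadjusted p under 0.05, beside 2.73% and 4.37% of all tested genes. VTN, the adhesive plasma protein vitronectin, stood at 141, 164 and 152 CPM in Dex and at 101, 132 and 125 CPM in DexKLA (log2 −0.36, interval −0.59 to −0.12), without overlap. APOA1, the main protein of high-density lipoprotein, stood at 4194, 4906 and 4310 CPM in Dex and at 3973, 4043 and 2931 CPM in DexKLA (−0.29, interval −0.56 to −0.02), and it overlaps APOA1-AS. TTR, the thyroid hormone carrier transthyretin, stood at 185, 220 and 190 CPM in Dex and at 169, 188 and 134 CPM in DexKLA (−0.29) with overlapping groups. The 20 tested acute-phase plasma protein genes had a median of −0.04. TMPRSS6, the hepatic protease that restrains hepcidin, stood at 28.3, 22.5 and 26.8 CPM in Dex and at 19.5, 20.4 and 14.3 CPM in DexKLA (−0.52, interval −0.85 to −0.18), without overlap.

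Lipid and xenobiotic genes gave values on both sides. HMGCS1, which makes the HMG-CoA used for cholesterol, stood at 660, 623 and 606 CPM in Dex and at 733, 753 and 873 CPM in DexKLA (log2 0.32, interval 0.07 to 0.58). PMVK, a later enzyme of the same route, stood at 18.3, 19.3 and 14.7 CPM in Dex and at 14.3, 11.1 and 13 CPM in DexKLA (−0.45). These neighbours in 1 pathway thus pointed in opposite directions, each without overlap, and the 30 tested cholesterol genes split into 16 positive and 14 negative (median 0.02). DGAT2, which completes triglycerides, stood at 37.7, 39.4 and 38.5 CPM in Dex and at 29.7, 31.1 and 34 CPM in DexKLA (−0.29, interval −0.52 to −0.05). UGT2B7, a glucuronidating enzyme, stood at 45.5, 53.2 and 47.9 CPM in Dex and at 56.2, 64.5 and 67.3 CPM in DexKLA (0.35, interval 0.04 to 0.65). UGT2B genes are close copies, so their reads may be shared. OSGIN1, an NRF2 target, stood at 34.9, 33.6 and 35.4 CPM in Dex and at 27.9, 20 and 25.4 CPM in DexKLA (−0.48), without overlap.

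Of the remaining lists, interferon-stimulated and MHC class I genes had 20 of 33 members negative (median −0.11), with IFITM3, an antiviral membrane protein, at −0.26 without overlap. Hepatocyte transcription factors had a median of −0.03 over 23 tested genes, bile acid genes −0.03 over 16, and fatty acid oxidation −0.01 over 28. Glycolysis and hypoxia-responsive genes had a median of 0.02 over 38, heat shock and chaperone genes 0.04 over 19, and NRF2 targets 0.04 over 25. Structural and nuclear noncoding RNAs had 15 of 21 members negative (median −0.10). RN7SK, the RNA that holds back the elongation factor P-TEFb, stood at 24.7, 8.31 and 15.8 CPM in Dex and at 7.77, 8.59 and 6.06 CPM in DexKLA (log2 −1.01, interval −1.93 to −0.09), and its groups overlapped.

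**Figure D4:**
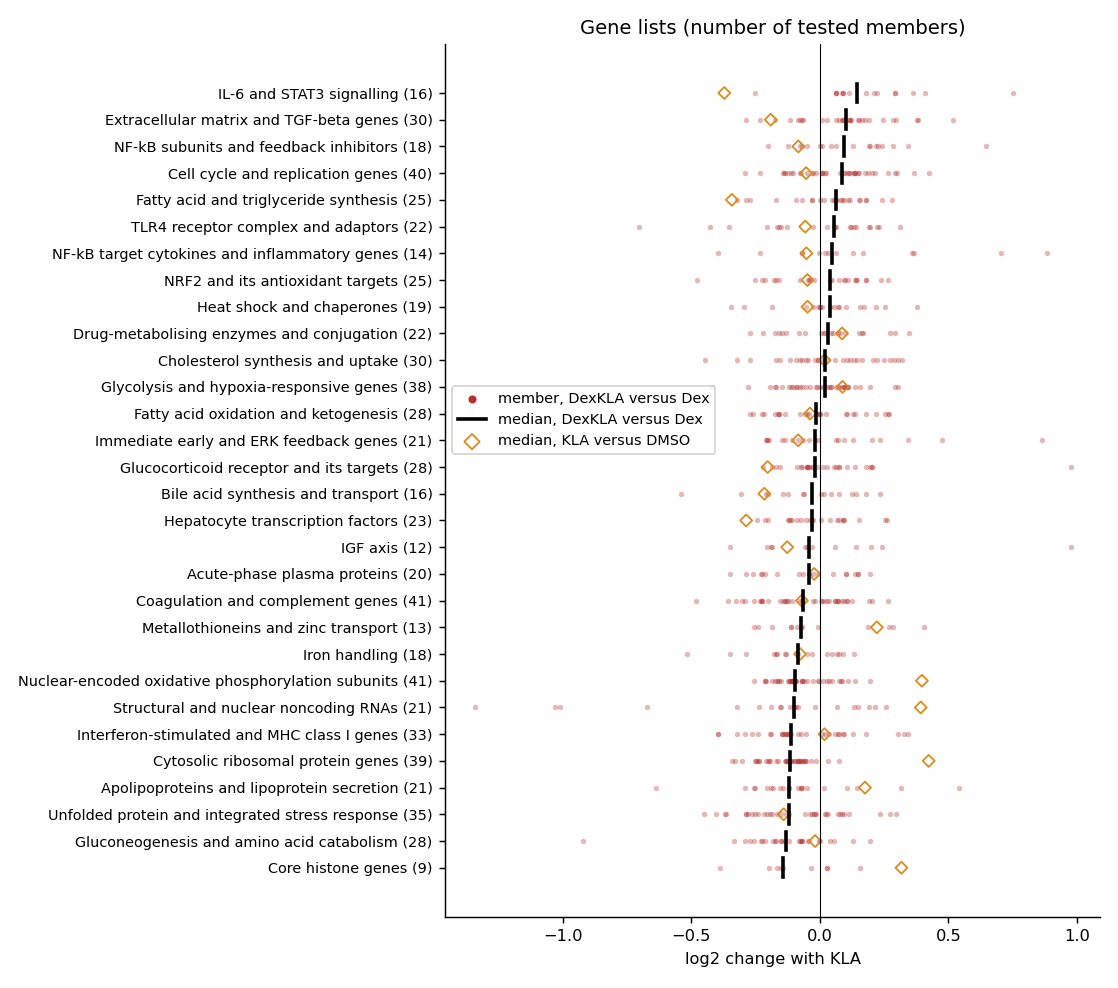
Log2 change in DexKLA versus Dex for each tested member (red points) of 30 gene lists, with the list's median (black bar) and the median of the same genes in KLA versus DMSO (orange diamonds). The black medians run from −0.14 to 0.15, and those of the ribosomal protein and oxidative phosphorylation lists lie below 0 where the orange ones lie at 0.42 and 0.40.

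The effect of KLA without Dex was fitted in the same model from 6 other libraries, so that the effects share no library. KLA versus DMSO gave 1806 called genes (13.7%), 1024 higher (7.78%) and 782 lower (5.94%). That count was 5 without DMSO replicate 1, 897 without DMSO replicate 2, 895 without DMSO replicate 3 and 591 without KLA replicate 3. Every KLA library was deeper than every DMSO library. With the depth class of the library as a covariate 4 genes were called, and with all libraries thinned to the depth of the shallowest 1437 were called. Of the 1806 genes, 778 (43.1%) had the same sign in DexKLA versus Dex. The median log2 change with Dex was 0.01 for the genes higher without it, whose median was 0.49 there, and 0.08 for the genes lower without it, whose median was −0.50. Pearson's r between both effects across the 13166 genes, given as a description, was −0.099.

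The share with the same sign moved with single libraries. It was 29.2% without DexKLA replicate 1, 59.1% without Dex replicate 2 and 67.1% without DexKLA replicate 3. It was 79.5% of 2391 called genes without Dex replicate 2 and DexKLA replicate 3 together, and 66.3% of 1067 with the length trend removed.

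For 4 inflammatory genes, all with a positive fitted change without Dex, the effects with and without Dex are set side by side. They do not stand for inflammatory genes as a whole. Over the 14 tested NF-kB target genes the median log2 change without Dex was −0.05, with 2 called higher and 1 lower. NFKBIA, TNFAIP3, ICAM1 and SOD2 had −0.17, −0.05, −0.12 and −0.09 without Dex, none called. CCL20 stood at 203, 262 and 295 CPM in DMSO and at 719, 376 and 489 CPM in KLA, where its log2 change of 1.06 ± 0.23 was called (edgeR, adjusted p = 0.011), against 0.17 ± 0.22 with Dex. The difference between both effects was −0.89 ± 0.32 with an adjusted p of 0.112 and did not pass the test. The mean level was 458 ± 69 CPM (SD, n = 3) in Dex and 253 ± 46.8 in DMSO. CXCL8 had a log2 change of 0.94 without Dex and 0.71 with it, neither called, and the difference of −0.24 had an adjusted p of 0.822 (edgeR). For BIRC3 the values were 0.18 without Dex and 0.65 with it (difference 0.46, adjusted p = 0.494, edgeR). IER3, an early-response gene induced by NF-kB, stood at 86.7, 78 and 78.8 CPM in DMSO, 186, 131 and 150 CPM in KLA, 105, 94.6 and 96.1 CPM in Dex, and 106, 112 and 84.7 CPM in DexKLA. Its effect of KLA was 0.94 ± 0.13 without Dex and 0.03 ± 0.13 with it. The difference of −0.91 ± 0.18 missed the threshold (adjusted p = 0.0544, edgeR quasi-likelihood test). IER3 has 6 annotated loci and overlaps IER3-AS1, so its reads cannot be assigned to 1 locus.

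The difference between the effect of KLA with Dex and that without Dex (the interaction) was called for 5 genes (0.038%), with 2922 at an unadjusted p under 0.05. All 5 had an adjusted p of 0.0449 by edgeR's quasi-likelihood test, and for each the call also draws on the KLA and DMSO libraries. CYP24A1, the enzyme that inactivates vitamin D (chromosome 20, 54153446 to 54173986), stood at 11.1, 11.2 and 10.8 CPM in Dex and at 12.8, 10.2 and 13.2 CPM in DexKLA, against 57.2, 20.5 and 40.8 CPM in DMSO and 9.87, 11.3 and 6.31 CPM in KLA. The 3 treated groups thus lay together and the DMSO libraries stood above them, and the interaction was 2.23 ± 0.37. PRKAR1A, a regulatory subunit of protein kinase A, had the same layout: 228 ± 22.7 CPM in Dex, 236 ± 16.7 in DexKLA and 201 ± 9.66 in KLA, against 343 ± 33.1 in DMSO (interaction 0.82 ± 0.15). 

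For the other 3 genes the Dex and DexKLA libraries did not overlap. HIPK1, a nuclear protein kinase (chromosome 1, 113929844 to 113977869), stood at 28.8, 22.5 and 26.8 CPM in Dex and at 33.3, 35.3 and 39.9 CPM in DexKLA, while KLA without Dex had the opposite sign (log2 −0.60), for an interaction of 1.11 ± 0.19. MYCBP2, a large ubiquitin ligase (chromosome 13, 77044657 to 77327094), stood at 19.1, 15.6 and 19.8 CPM in Dex and at 22.8, 25.8 and 31.3 CPM in DexKLA (interaction 1.21 ± 0.22). RPPH1 had an interaction of −2.66 ± 0.48, with 1.41, 1.44 and 4.58 CPM in DMSO and 6.73, 6.67 and 5.25 CPM in KLA beside its values with Dex given above. HIPK1 and MYCBP2 shared a layout in which Dex and KLA lay low and DMSO (40.3 ± 3.25 and 27.6 ± 3.82 CPM) and DexKLA lay high. HIPK1 overlaps HIPK1-AS1, MYCBP2 overlaps MYCBP2-AS1 and PRKAR1A overlaps AC007780.1. HIPK1 and MYCBP2 have transcripts of 8070 and 14992 bases and RPPH1 one of 340, and Spearman's rho between length and the interaction across all tested genes was 0.576. The part of this trend in the calls was not tested beyond the fit without it, which called 2 genes.

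**Figure D5:**
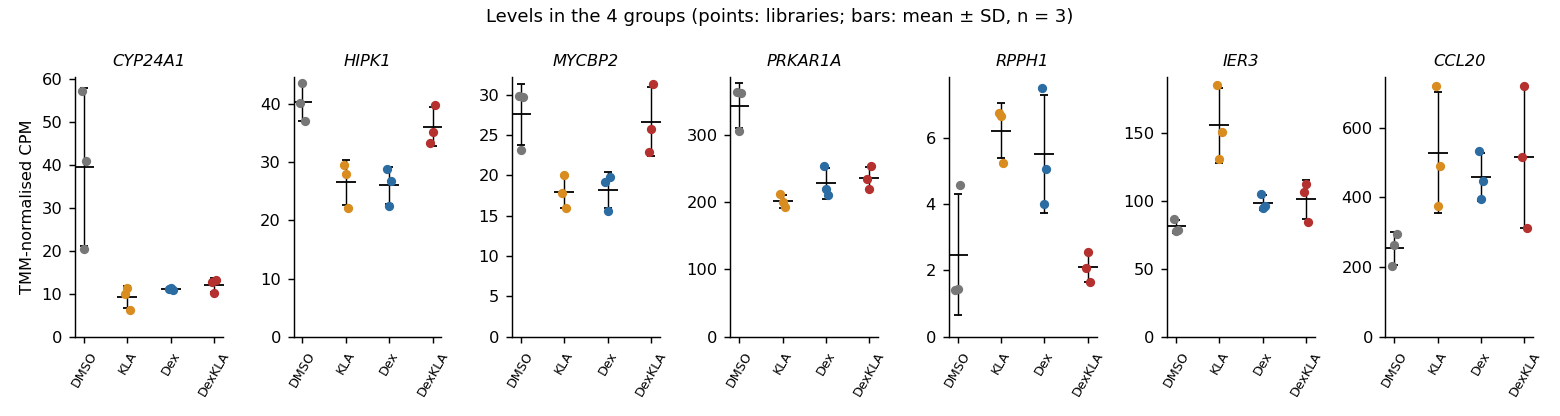
TMM-normalised CPM (vertical axes start at 0) in the 3 libraries of each of the 4 groups for the 5 genes called for the interaction and for IER3 and CCL20, which were not; bars are the mean ± SD. CYP24A1 and PRKAR1A are high in DMSO alone, HIPK1 and MYCBP2 are higher in DexKLA than in Dex, and RPPH1 is lower.

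The number of interaction calls rested on single libraries. It was 0 without DMSO replicate 1, Dex replicate 2, Dex replicate 3, DexKLA replicate 2 or DexKLA replicate 3, 1 without DMSO replicate 3, 2 without KLA replicate 1, 4 without DMSO replicate 2 and 8 without KLA replicate 3. It was 418 without KLA replicate 2, 430 without Dex replicate 1 and 681 without DexKLA replicate 1.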

How the data were processed

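RNA of HepG2 cells was extracted with a Monarch kit and made into libraries with a NEBNext Ultra II kit, per the labels' protocols. Trimmomatic, BWA 0.7.17, HOMER 4.10 and the genome hg38 are named in the submitters' processing notes, without the role of each. The authors deposited a value for each of 70507 RefSeq transcripts, in steps of 0.5. The deposited values were read as estimated counts. How they were made is not given in the sources used here. Non-integer values, 32.6% to 36.4% per library, were rounded.

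Transcripts with no gene symbol (406, with 1.71% to 2.55% of a library's total) were left out. Each of 28256 symbols was represented by its transcript with the largest sum of counts across the 12 libraries. Library totals over genes were 3317740 to 20933501. Genes were filtered with filterByExpr (minimum count 10), scaled by TMM and tested with edgeR 4.0.16 in R 4.3.3, with 1 mean per group over all 12 libraries (8 residual degrees of freedom) and Benjamini-Hochberg adjustment. The 3 contrasts were DexKLA versus Dex, KLA versus DMSO and their difference. The threshold for a call was an adjusted p of 0.05. Errors of log2 values are standard errors and those of CPM values are SDs over 3 libraries. The data.table package (1.17.8) read the file, and the procedure was tested on simulated data. The simulation set changes of 2-fold or more and no trend with transcript length, so it does not cover smaller changes or that trend.

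Named genes were those called and, with few called, up to 5 with the smallest p per direction, up to 2 per list, 4 per direction of the interaction and a panel of 16 receptor and response genes, at a mean of at least 1 CPM unless in the panel. The rule gave 93 genes, of which the text describes those its results turn on and leaves the others unreported. Genes outside it in the last paragraph are marked as chosen after their values were seen. Others outside it, among them LYZ, albumin, IL6 and CD163, are members of the lists and carry no such mark. The genes, lists and comparisons were chosen with earlier results of these data known. Overlapping genes come from GENCODE 29 and promoters from RefSeq. Overlaps are not stated beside every gene. OSGIN1, VTN, RN7SK and CD68 also overlap a gene on their own strand. HMGCS1, DGAT2, HPD, FBP1, IFITM3 and ITGAV overlap a gene on the other strand. Alternatives used limma 3.58.1, DESeq2 1.42.0, other scaling, filters and transcripts, a replicate block, depth, length and left-out libraries. The fit without Dex replicate 2 and DexKLA replicate 3 together, and the shares with the same sign, were added after seeing the data.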

Additional observations from a re-analysis of the deposited data

Results flagged for a closer look

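For 5 genes the effect of KLA with Dex differed from that without Dex by the interaction term of edgeR's quasi-likelihood test, each at an adjusted p of 0.0449 with 3 libraries in each of 4 groups. The difference was 2.23 on the log2 scale for CYP24A1 (called in 13 of 24 alternative settings), 1.11 for HIPK1 (11 of 24), 1.21 for MYCBP2 (10 of 24), 0.82 for PRKAR1A (11 of 24) and −2.66 for RPPH1 (9 of 24). The sign of each difference held in all 24. The highest adjusted p over these settings was 0.464 for each gene, in the fit without Dex replicate 2 and DexKLA replicate 3.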

How the results depend on the processing

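DexKLA versus Dex had 0 called genes in 26 of 27 alternative settings, among them every fit that left out 1 library (lowest and highest count 0), the depth class as a covariate and the 6 libraries alone. Without a filter on low counts 12 of 19916 genes were called. Genes at an unadjusted p under 0.05 ran from 378 (shallower libraries) to 1255 (no filter). The interaction count of 5 became 0 with DESeq2 size factors, limma voom, the depth class as a covariate, or Dex replicate 2 and DexKLA replicate 3 left out, 230 with library size alone, 1040 without a filter, 9 with libraries thinned to the shallowest, 2 with the length trend removed and 710 with DESeq2, and ran from 0 to 681 when leaving out 1 library. The cause of these moves was not tested.

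The labels do not say whether replicate numbers mark pairs. Deviations of same-numbered Dex and DexKLA libraries correlated across genes at −0.096, −0.084 and −0.033. Libraries of different numbers were not compared, so these values cannot decide whether the numbers mark pairs. With a replicate block 0 genes were called in DexKLA versus Dex and 0 for the interaction.

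The 93 named genes gave 2693 values under alternatives, of which 66 lost a call, 23 gained one and none of the called values reversed. No gene was called in DexKLA versus Dex in the main fit, so only genes called for the interaction could lose a call. Those calls held in 13 of 24 settings for CYP24A1, 11 for HIPK1, 10 for MYCBP2, 11 for PRKAR1A and 9 for RPPH1. The 66 losses are thus not rare among the calls, although they are few beside 2693 values. Values that were not called changed sign 39 times, and 73 genes never did. Precision was lowest for genes under 2 CPM, where most intervals reached past 2-fold. TLR4, LBP, CRP, SAA1 and TSC22D3 had too few counts to be tested.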

Other observations

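Without the filter on low counts, edgeR's quasi-likelihood test called 12 genes in DexKLA versus Dex, 10 of them higher. RPPH1, RN7SK, ASPM, CD109, LTN1, DMXL1, VPS13A, NBEAL1, ZIM2, PDIA2 and RNA45SN2 were also tested in the filtered set and not called there. CYB5R2, a cytochrome b5 reductase, did not pass the filter. It had 0 counts in each of the 3 Dex libraries and 8, 2 and 10 counts in DexKLA replicates 1 to 3. PDIA2, a protein disulfide isomerase, had 14, 62 and 10 counts in Dex and 28, 16 and 189 in DexKLA, so that DexKLA replicate 3 held most of its counts. RNA45SN2, a precursor of ribosomal RNA with near-identical copies, had 435, 440 and 198 counts in Dex and 1461, 220 and 486 in DexKLA, with DexKLA replicate 1 highest. All genes of this paragraph except RPPH1, RN7SK, ASPM and CD109 lie outside the rule for naming genes and were chosen after their values were seen.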
